A study of Drosophila melanogaster with 12 samples.

Results

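Uhg1 is a long non-coding RNA gene on chromosome arm 2R of Drosophila melanogaster that holds small nucleolar RNA (snoRNA) genes within it. It was measured on an Affymetrix DrosGenome1 array, on which a gene is read by 1 or more probe sets, each giving 1 signal per array. All probe sets annotated to Uhg1 alone, by symbol or by Entrez number, were taken. There was 1 such probe set, 151217_at, of 14010 on the array, and Uhg1 is 1 of 10844 genes that a probe set names alone, while 0 further probe sets named Uhg1 together with other genes. The gene was chosen by its signals in S284Y against WT flies, which earlier results of these data had shown to differ greatly. Its levels and its genotype differences are therefore given as a description with no test, and only its temperature differences, which were not used to choose it, were tested.

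The arrays measured total RNA of whole flies, each sample holding RNA of 5 males and 5 females. WT 25C denotes flies wild type for dU2AF50 and kept at 25C, the temperature the labels call permissive. WT 30C denotes the same genotype at 30C, the restrictive temperature. S284Y 25C and S284Y 30C denote flies with the S284Y mutation of dU2AF50 at those temperatures. There were 3 arrays in each of the 4 groups. The protein dU2AF50, whose gene is called U2af50, is the large subunit of the splicing factor that binds the polypyrimidine tract before the 3' splice site of an intron. Each genotype is given by its name alone in the labels, with no strain, other alleles or age, so the S284Y mutation and any other difference between the stocks cannot be told apart. Nothing in the labels says that the 3 samples of a group came from separate pools of flies, so p-values measure only the spread between these samples, which may be technical. The descriptions of all 3 WT 30C samples read 25C, and that of array 1 also reads permissive. Groups follow the sample titles.

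SnoRNAs are short nuclear RNAs that guide the chemical modification of ribosomal and other RNAs. Those of the box C/D class direct methylation of the ribose by fibrillarin, and those of the box H/ACA class direct pseudouridylation by dyskerin. Most animal snoRNAs lie in introns of other genes, called host genes, and are trimmed from the excised and debranched intron after splicing. Many hosts encode proteins of the ribosome or of translation. The Uhg genes, named after the mammalian host of the snoRNA U22, are hosts whose spliced exons encode no known protein, and in mammals the spliced RNA of such a host is short-lived.

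By position in the gene table used for names (NCBI RefSeq), Uhg1 enclosed 16 of 269 snoRNA genes. By the stem of their names they were 4 Me28S genes, 3 U29, 3 U31, 2 U27, 2 snR38, 1 Me18S and 1 U76. The Me28S and Me18S names refer to methylation sites in the large and small ribosomal RNAs. In chromosomal order the run began with snoRNA:Me28S-G3081a and ended with snoRNA:Me18S-A28a. Of the 269 snoRNA genes, 0 had a probe set with a single gene name, so the values below belong to the host transcript and say nothing of the snoRNAs.

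Array medians lay between 401.5 and 546.6 signal units. Arrays 2 and 3 of S284Y 25C stood apart from the other 10. Their median correlation with the other arrays (Pearson, log2 scale) was 0.870 and 0.842, against 0.924 to 0.939 for the others, and the geometric mean of their hybridization controls was 27212 and 8185, against 2924 to 5145. Some results that rest on S284Y 25C are also given without them. The other differences and medians at 25C are given only with these arrays and may depend on them. Of 15 whole-fly tissue markers chosen for photoreceptor, muscle, neuron, fat body, yolk, eggshell, male gland, testis and gut, 13 were measured. The neuronal marker elav stood at percentile 0.738 of an array at its lowest, and the other 12 were never below percentile 28.5. Mean signals of the yolk protein gene Yp1 were 23111 in WT 25C, 12636 in WT 30C, 103779 in S284Y 25C and 46166 in S284Y 30C, and those of the gut lysozyme gene LysC were 2207, 1024, 59066 and 32116. Those of the fat body storage protein gene Lsp2 were 11608, 6098, 3820 and 1215. Of the 13 markers, 7 had a higher mean in S284Y at both temperatures (elav, Yp1, the eggshell genes Cp15 and Cp36, the testis gene Mst84Db, and the gut genes Jon65Aiii and LysC), 3 a lower one (the muscle gene Act88F, Lsp2 and the male gland gene Acp26Aa) and 3 opposite directions at 25C and 30C. Markers thus moved in both directions with the genotype, and the part of tissue content in the Uhg1 values was not tested. The marker means and directions include arrays 2 and 3 of S284Y 25C and are given only with them.

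Uhg1 was bright in all wild-type samples and near the bottom of the array in all mutant ones. In WT 25C its signals were 2163, 1915 and 2150, with a mean of 2076 ± 139 (SD, n = 3). In WT 30C they were 1905, 1599 and 1677, with a mean of 1727 ± 159 (SD, n = 3). These 6 arrays lay within a narrow band, and the coefficient of variation was 6.72% at 25C and 9.19% at 30C. In S284Y 25C the signals were 17.8, 34.6 and 15.9, with a mean of 22.8 ± 10.3 (SD, n = 3). In S284Y 30C they were 56.7, 39.7 and 18.2, with a mean of 38.2 ± 19.3 (SD, n = 3). The genotypes did not overlap at either temperature, and the mutant arrays varied more in relative terms, with coefficients of variation of 45.2% at 25C and 50.5% at 30C. In whole-fly RNA, fewer cells that express a gene and less of its RNA per cell cannot be told apart.

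**Figure D1:**
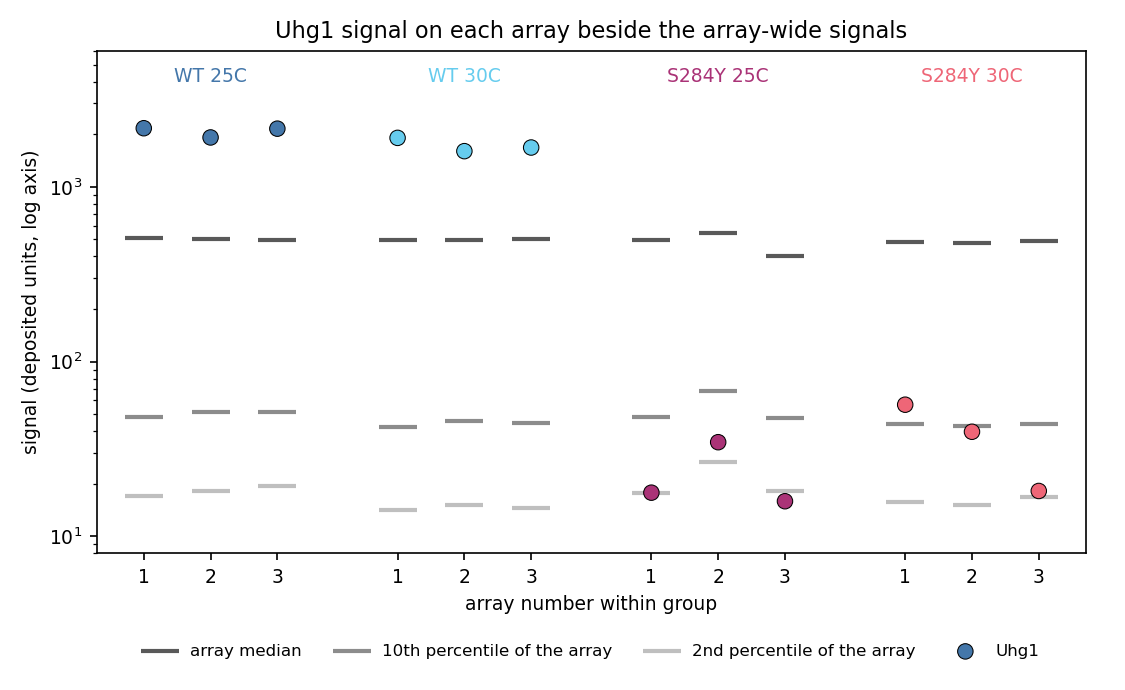
Signal of Uhg1 (circles, log axis, deposited units) on each of the 12 arrays by group and array number, with grey bars for the median, the 10th percentile and the 2nd percentile of all probe sets on the same array. The 6 WT circles sit between 1599 and 2163, above the array median, and the 6 S284Y circles between 15.9 and 56.7, around the lower bars.

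The signal floor of each array was read from its own low end. On the 12 arrays the 2nd percentile of all probe sets lay between 14.2 and 26.6 and the 10th percentile between 42.2 and 67.9. In the wild type Uhg1 stood between percentiles 84.8 and 86.8 at 25C and between percentiles 80.1 and 83.8 at 30C. In S284Y 25C it stood between percentiles 1.56 and 3.32, with values on either side of the 2nd percentile of the array concerned. In S284Y 30C it stood at percentiles 13.1, 9.19 and 2.42 on arrays 1, 2 and 3. Array 1 of S284Y 30C was the only mutant array on which Uhg1 exceeded the 10th percentile, which was 44.0 there. Relative to the array median, Uhg1 was 3.22 to 4.32 times as bright in the wild type and 0.0359 to 0.117 times in the mutant.

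Probe sets for bacterial, yeast and mouse sequences gave a second reading of the floor, since they answer to no fly gene. There were 23 of them. On each of the 6 WT arrays 0 of the 23 were brighter than Uhg1. On the S284Y 25C arrays 18, 21 and 20 of them were brighter than Uhg1, and on the S284Y 30C arrays 9, 10 and 17. The mutant signals therefore lay among those of probe sets without a fly target. They bound the level from above and do not give one, so the ratios that follow state how far apart the signals were and not how much transcript was left.

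The ratio of mean signals, WT over S284Y, was 91.2 at 25C and 45.2 at 30C. The lowest WT signal was 55.4 times the highest S284Y signal at 25C and 28.2 times at 30C. On the scale used for the fits, log2(signal + 16), S284Y minus WT was -5.78 at 25C and -5.07 at 30C. These were the lowest difference of all 13966 fly probe sets at 25C and the second lowest at 30C. The sizes depend on the number added before the logarithm. With 1 in place of 16 they were -6.53 and -5.60, and with 64 they were -4.63 and -4.15. Without S284Y 25C arrays 2 and 3, the difference at 25C was -5.95. By limma with Benjamini-Hochberg adjustment, 0.788% of probe sets passed the threshold of 0.05 between genotypes at 25C and 1.53% at 30C. These shares are the background for the gene lists below.

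The drop from a bright signal to the floor was then looked for across the array. A pattern was set after the Uhg1 values were known: above the array median on all 6 WT arrays and below the 20th percentile on all 6 S284Y arrays. Of 13966 probe sets, 1 met it, and that was Uhg1. Since the cuts were set with its values known, that Uhg1 met them is not a result. Mur2B, at 1470 to 2339 in WT and 31.7 to 202.5 in S284Y, did not meet them. The reverse pattern, above the median in all S284Y arrays and below the 20th percentile in all WT arrays, was met by 0. Leaving out arrays 2 and 3 of the S284Y 25C group did not alter either count. A weaker criterion, with every WT array above every S284Y array, was met by 222 probe sets (1.59%), and the reverse by 148 (1.06%). These counts were 588 and 554 over the other 10 arrays.

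**Figure D2:**
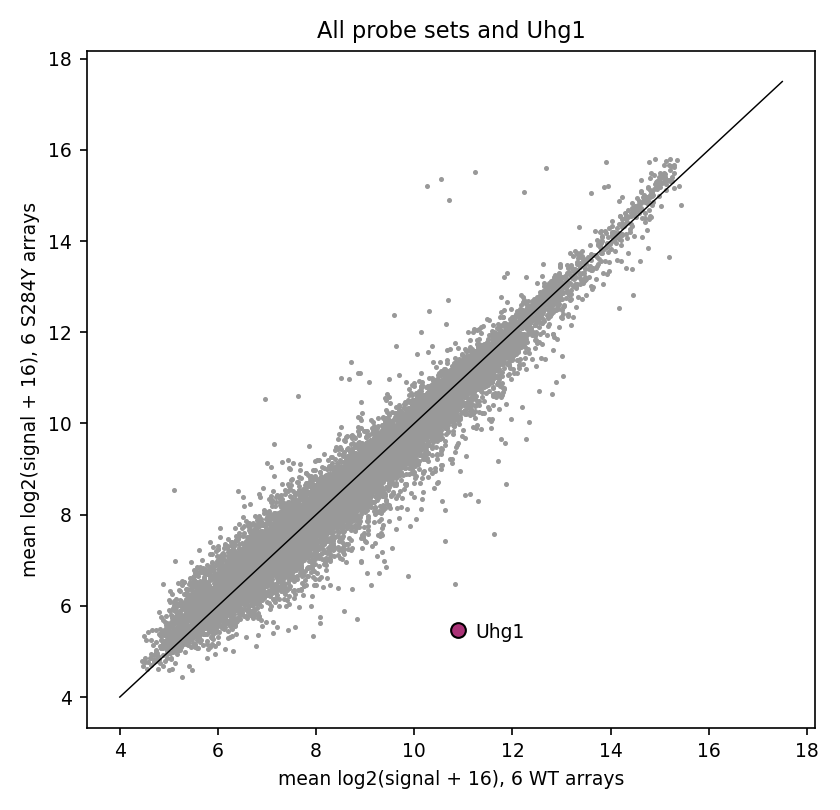
Mean log2(signal + 16) over the 6 S284Y arrays (vertical) against the mean over the 6 WT arrays (horizontal) for all 13966 fly probe sets, each a grey point, with the line of equal values. Uhg1 is the marked point at the lower right, far below the line at a high WT mean and a low S284Y mean.

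The temperature comparisons asked whether Uhg1 differed between flies kept at 25C and at 30C within each genotype. In the wild type all 3 signals at 30C, with a highest value of 1905, were below all 3 at 25C, with a lowest value of 1915. These nearest values were close, while the group means were 2076 and 1727 with SDs of 139 and 159. The log2 difference, 30C minus 25C, was -0.27 ± 0.352 (SE), a ratio of 0.832, with a 95% confidence interval of -1.03 to 0.50 and a limma adjusted p of 0.962. In this comparison 0.0931% of all probe sets passed, and Uhg1 did not. The standard error was shared with the mutant arrays, on which Uhg1 was near the floor and varied more. A fit of the 6 WT arrays alone gave the same difference with a smaller SE, 0.107, and a limma adjusted p of 0.250.

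In S284Y the signals at 30C overlapped those at 25C. The lowest value at 30C, 18.2, lay between the lowest at 25C, 15.9, and the highest, 34.6. The log2 difference was 0.45 ± 0.352 (SE), with a 95% confidence interval of -0.31 to 1.21 and a limma adjusted p of 0.440. Here 4.0% of all probe sets passed. Since both groups lay at the low end of the array, the values are not read as a change.

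The interaction asked whether the temperature difference itself differed between genotypes. For Uhg1 it was 0.71 ± 0.497 (SE) on the log2 scale, with a 95% confidence interval of -0.36 to 1.79, an unadjusted limma p of 0.176 and an adjusted p of 0.681. Among all probe sets 0% passed this test by limma with the adjustment, and 1127 of 13966 had an unadjusted p under 0.05. No alternative processing gave a call for Uhg1 in any of these 3 comparisons. The adjusted p ran from 0.250 to 1.0 for WT, from 0.243 to 0.779 for S284Y and from 0.426 to 0.842 for the interaction.

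Other genes that enclose snoRNAs were compared next. By position 109 genes enclosed 257 of the 269 snoRNA genes, and 63 of the 109, Uhg1 included, had a probe set. The table gives no strand, so a gene was counted as enclosing by position alone. The other non-coding Uhg genes, Uhg2, Uhg3, Uhg4, Uhg5, Uhg7 and Uhg8, had no probe set with their name alone, while Uhg6 is an older name of the protein-coding gene Nop60B. Of the 62 measured enclosing genes other than Uhg1, 1 was called higher and 1 lower in S284Y at 25C (lowest limma adjusted p 0.0294), and 1 was called higher and 0 lower at 30C (lowest 0.0337). The background shares of 0.788% and 1.53% would come to at most about 1 gene in a list of this length. The median log2 difference of the 62 was -0.10 at 25C and 0.15 at 30C, against 0.00 and 0.03 over all probe sets. An unadjusted limma p under 0.05 was found for 15 of the 62 at 25C and 5 at 30C, against 13.9% and 11% of all probe sets. Every WT array stood above every S284Y array for 2 of the 62, the deubiquitinase gene Usp10 and the chromatin remodeller gene kis, and the reverse held for 3, CG42238, Fib and Nop60B, against 1.59% and 1.06% of all probe sets. The margin was slight for kis (lowest WT 1521.7, highest S284Y 1518.0) and CG42238 (highest WT 220.0, lowest S284Y 220.3). In the other probe sets of kis and Usp10 the genotypes overlapped. When the 2 arrays that stood apart were left out, the counts at 30C were 7 higher and 4 lower, while those at 25C were 0 and 1. That fit called 9.15% of all probe sets at 30C and 1.18% at 25C, and these shares are the background for every count from it below.

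Hosts with the most snoRNAs showed how Uhg1 compared with genes of like content. A minimum of 5 snoRNAs was set after the host table had been seen, and 8 genes besides Uhg1 met it and had a probe set. Arpc2, a subunit of the actin-nucleating Arp2/3 complex, encloses 17 snoRNA genes, 1 more than Uhg1. Its signals were 4392, 4557 and 3701 in WT 25C, 5135, 5038 and 4432 in WT 30C, 4609, 2787 and 6237 in S284Y 25C, and 3776, 5596 and 5872 in S284Y 30C. The genotypes overlapped for Arpc2, and its log2 difference was 0.04 ± 0.260 (SE) at 25C and 0.04 at 30C (limma adjusted p 0.956 and 0.987).

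The gene dom, which encodes the Domino chromatin-remodelling ATPase, encloses 15. Its brightest probe set read 2223, 1650 and 1492 in WT 25C and 1671, 930.2 and 432.9 in S284Y 25C. At 30C it read 1779, 1606 and 1671 in WT and 1665, 2074 and 2201 in S284Y. The log2 difference was -0.99 at 25C (limma adjusted p 0.261) and 0.22 at 30C (0.919), and the second probe set of dom gave -0.85 and 0.01. For the brightest probe set the low values at 25C came from arrays 2 and 3, while for the second array 3 alone was low, at 231.0.

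Sf3b3, a component of the U2 snRNP that acts at the same step of splicing as U2AF, encloses 9. It read 1493, 2477 and 177.2 in S284Y 25C and 1549 to 2345 in WT 25C, so that array 3 alone was low. Its log2 difference of -1.05 ± 0.653 (SE) did not pass (limma adjusted p 0.478), and at 30C it was -0.08. Hrb98DE, an hnRNP protein gene with 7 snoRNAs, gave -0.29 and 0.22. The ribosomal protein gene RpS7, also with 7, gave 0.07 at both temperatures, and CG10576 with 5 gave 0.21 and 0.10.

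RpL28, a ribosomal protein gene with 5 snoRNAs, had the largest difference at 30C among these hosts after Uhg1 and Nop60B. It read 6069, 10267 and 13449 in WT 30C and 24577, 27610 and 20724 in S284Y 30C. All 3 mutant values were higher, and the log2 difference was 1.35 ± 0.357 (SE), which did not pass (limma adjusted p 0.0967). At 25C it was 0.58 (0.473). Of these 8 hosts, Nop60B alone was called in a genotype comparison, and it was called higher.

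**Figure D3:**
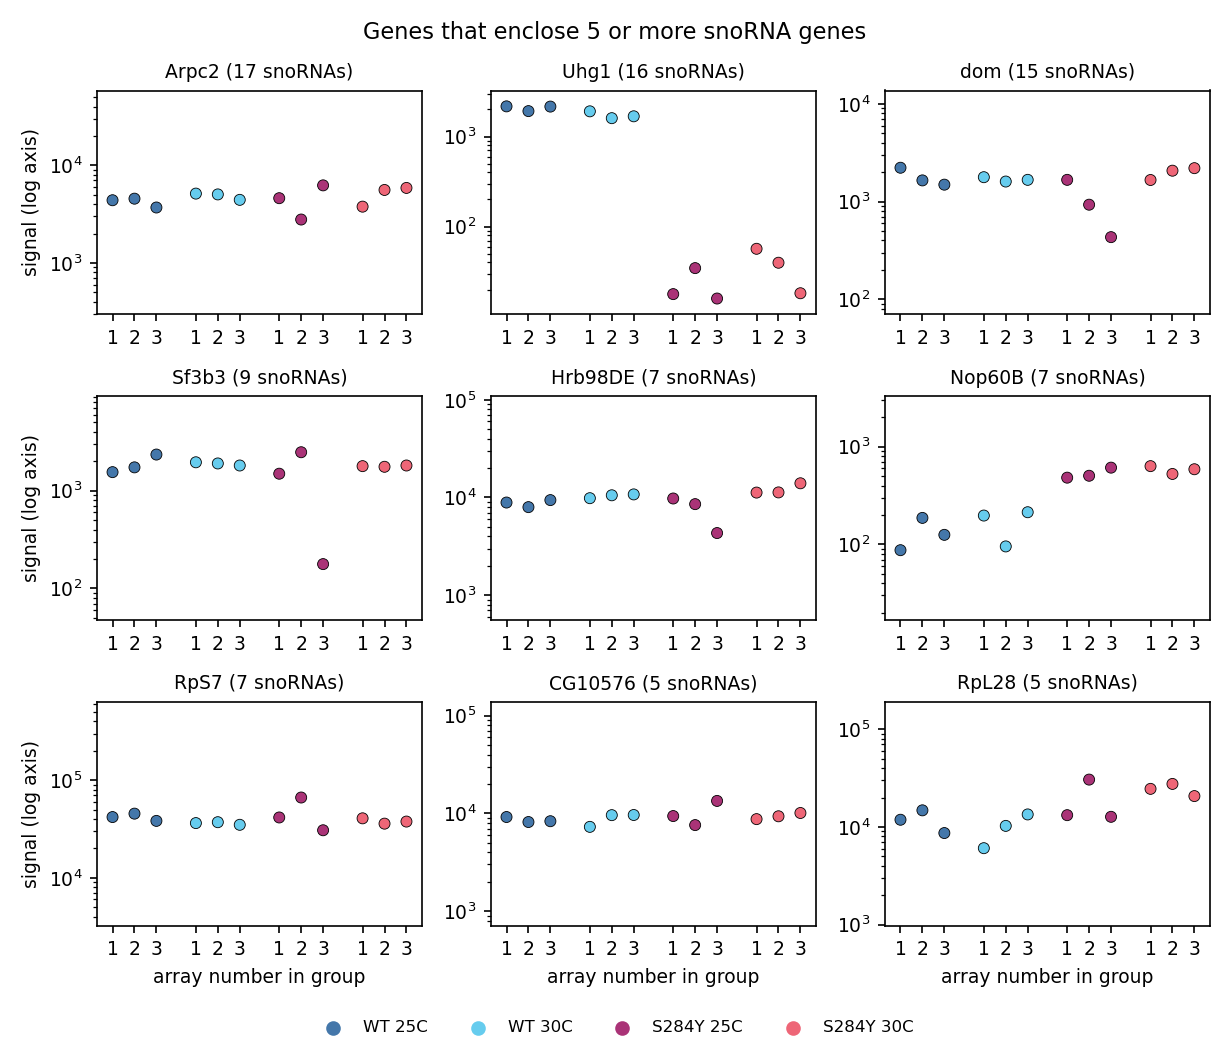
Signals (log axis, deposited units) of Uhg1 and the 8 measured genes that enclose at least 5 snoRNA genes, 1 panel a gene, each circle an array, coloured by group and numbered by array. Every panel spans about the same range in factors of 10, and the panel of Uhg1 is the one in which the S284Y circles drop by more than 1 such factor on every array, while those of Nop60B lie above WT.

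Nop60B is both a snoRNA host and the gene of fly dyskerin, the pseudouridine synthase that works with box H/ACA snoRNAs. Its signals were 87.2, 186.7 and 125.2 in WT 25C and 197.3, 95.3 and 213.4 in WT 30C. In S284Y they were 482.1, 504.2 and 610.5 at 25C and 632.4, 526.1 and 587.9 at 30C. All 6 mutant values were above all 6 wild-type values, the opposite of Uhg1. The wild-type signals were dim. On WT 25C arrays 1 and 3 and WT 30C array 2 they were below the brightest probe set without a fly target (192.9, 250.6 and 172.4). On the other WT arrays they were above it. The size of the difference is therefore uncertain. Nop60B rose by a log2 difference of 1.93 ± 0.371 (SE) at 25C (limma adjusted p 0.0294) and of 1.76 ± 0.371 at 30C (0.0337). The difference kept its direction in 21 alternatives at each temperature, from 1.62 to 2.18 and from 1.43 to 1.95, but the call was lost in 9 of 21 at each. Without S284Y 25C arrays 2 and 3 the adjusted p at 25C was 0.182, and in a fit of the 6 arrays at 25C it was 0.289. Leaving out single arrays that ended the call at 25C gave an adjusted p of 0.140 without WT 25C array 1, 0.125 without array 3, 0.0533 without S284Y 25C array 2, and 0.0566, 0.0581 and 0.0541 when array 1, 2 or 3 of S284Y 30C was dropped. At 30C these values were 0.0542 without WT 25C array 3, 0.0839, 0.159 and 0.0631 when array 1, 2 or 3 of WT 30C was dropped, and 0.123, 0.107 and 0.130 when array 1, 2 or 3 of S284Y 30C was. With WT 30C array 1 placed in WT 25C the value at 30C was 0.0725. With the replicate number as a block the values were 0.0679 at 25C and 0.0749 at 30C.

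Usp10, whose protein removes ubiquitin from other proteins, was the enclosing gene called lower at 25C. Its brightest probe set read 5368, 4871 and 5545 in WT 25C and 2453, 2030 and 685.0 in S284Y 25C. At 30C it read 5689, 6252 and 6654 in WT and 3887, 4463 and 3549 in S284Y. Usp10 fell by 1.79 ± 0.347 (SE) on the log2 scale at 25C (limma adjusted p 0.0300), and at 30C the difference of -0.65 did not pass (0.567). The other probe sets of the gene gave -1.06 (0.397) and -0.32 (0.676) at 25C, in the same direction without a call. At 30C it passed in the fit of the 30C arrays alone (0.00850), without S284Y 25C arrays 2 and 3 (0.00306) and without S284Y 25C array 3 (0.00694). The call of the brightest probe set at 25C was lost in 11 of 22 alternatives, among them a fit of 25C arrays alone (adjusted p 0.328) and the removal of any WT or S284Y 30C array. It held without S284Y 25C arrays 2 and 3, at a smaller difference of -1.09 (0.00494). The signals of Usp10 in S284Y were about an order of magnitude or more above the array floor, and those of Uhg1 were at it.

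Between temperatures, 1 of the 62 enclosing genes was called in the wild type, Ddx56, an RNA helicase gene. Its signals were 1870, 1831 and 2014 at 25C and 4027, 4085 and 3553 at 30C, a rise of 1.02 on the log2 scale (limma adjusted p 0.0297). The call was lost when any WT array or any S284Y 30C array was left out (adjusted p 0.0708 to 0.248). In S284Y 4 of 62 were called higher and 0 lower: Ddx56 (0.71), the chromatin protein gene Dek (0.92), the adducin gene hts (0.93) and Usp10 (1.38). The share of all probe sets called in that comparison was 4.0%. Over the 10 arrays that did not stand apart 1 of 62 was called, and none of these 4 was it. Their differences were then 0.55, 0.39, 0.38 and 0.68, in the same order, and 1.31% of all probe sets passed. The counts use the brightest probe set of a gene. In S284Y a dimmer probe set of mask was called higher by 2.70 (limma adjusted p 0.0176) and 1 of lola by 2.07 (0.0464). The brightest probe sets of these 2 genes were not called (0.179 and 0.0680). All these genes were picked out after their values were seen.

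The core proteins of snoRNA particles and proteins that help to assemble them were followed in a list of 13 genes, of which 10 were measured. In S284Y 1 was called higher and 0 lower at 25C, and the same at 30C, both times Nop60B. Of the 10, 6 had an unadjusted limma p under 0.05 at 25C and 3 at 30C, against 13.9% and 11% of all probe sets. The median log2 difference of the 10 was 0.19 at 25C and 0.24 at 30C. Fib, the fibrillarin methyltransferase of box C/D particles, read 5655 to 6343 on the 6 WT arrays and 6822 to 9589 on the 6 S284Y arrays. The genotypes did not overlap, yet the log2 difference was small, 0.38 at 25C (limma adjusted p 0.326) and 0.27 at 30C (0.622). Nop56, a box C/D core protein, gave 0.19 and -0.04.

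For 2 of the 10 genes, Fib and Nop60B, every S284Y array was above every WT array, against 1.06% of all probe sets. Among the partners of dyskerin, Gar1 was lower on every S284Y array. It was the only 1 of the 10 with every WT array above every S284Y array, against 1.59% of all probe sets. It read 2719, 2800 and 3035 in WT 25C, 3264, 3356 and 3167 in WT 30C, 1709, 1257 and 1969 in S284Y 25C and 2120, 2498 and 2177 in S284Y 30C. Its log2 difference of -0.81 ± 0.174 (SE) at 25C narrowly missed the threshold (limma adjusted p 0.0550), and at 30C it was -0.53 (0.209). NHP2 gave 0.79 (0.172) and 0.25 (0.825), and Nop10 gave 0.90 (0.164) and 0.63 (0.381). The 4 proteins of the box H/ACA core therefore had differences of both signs in the same samples. In the fit that leaves out the 2 arrays standing apart, 1 of the 10 genes was called higher and 1 lower at 25C, and 2 higher and 1 lower at 30C, against 1.18% and 9.15% of all probe sets. Gar1, Fib, NHP2, Nop10 and Nop56 were picked out after their values were seen.

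A list of 14 genes covered the steps after splicing that release and trim an intronic snoRNA, the lariat debranching enzyme, the 5' to 3' exonucleases and the RNA exosome. Of 13 measured, 0 were called in either genotype comparison by limma. The lowest adjusted p was 0.205 at 25C and 0.455 at 30C, and 2 and 1 had an unadjusted p under 0.05. Over all probe sets 13.9% had an unadjusted p under 0.05 at 25C and 11% at 30C, against which these counts and those of the lists below are read. The debranching enzyme gene ldbr read 690.3, 542.4 and 604.6 in WT 25C and 467.2, 326.7 and 178.6 in S284Y 25C, and at 30C 747.5, 587.7 and 607.8 in WT and 671.8, 686.1 and 804.0 in S284Y. It was lower in S284Y at 25C by a log2 difference of -0.98, which did not pass (0.205), and at 30C the genotypes overlapped. In S284Y ldbr was called higher at 30C than at 25C, by 1.21 (0.0494). That call was lost in 15 of 22 alternatives, among them the fit of the 6 S284Y arrays (0.301). Without S284Y 25C arrays 2 and 3 the difference was 0.60 (0.278).

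The splicing factors that read the 3' splice site formed a list of 14, with 13 measured. By limma 0 were called between genotypes, with a lowest adjusted p of 0.148 at 25C and 0.233 at 30C, and 3 and 1 had an unadjusted p under 0.05. U2af50 itself, the mutated gene, gave signals of 4095, 4052 and 3792 in WT 25C and 4743, 3723 and 6198 in S284Y 25C. The difference was 0.27 on the log2 scale (0.531) at 25C and 0.21 (0.802) at 30C, so its mRNA level gave no check of the genotype labels. U2af38, the gene of the small U2AF subunit, gave 0.13 (0.802) and 0.05 (0.972). Every S284Y array was above every WT array for 2 of the 13, Phf5a and Sf3b6, both components of the SF3b complex, against 1.06% of all probe sets. Phf5a gave 0.86 (0.148) at 25C and Sf3b6 gave 0.79 (0.170), and neither passed. The fit of the 10 other arrays called 1 of 13 higher at 30C, near the 9.15% of all probe sets.

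Nonsense-mediated decay is the pathway by which spliced RNAs with premature stop codons are destroyed. Of 13 genes of this pathway and of the exon junction complex, 8 were measured. By limma 0 were called between genotypes, with a lowest adjusted p of 0.331 at 25C and 0.279 at 30C, and 3 and 1 had an unadjusted p under 0.05. The RNA helicase gene Upf1, central to the pathway, gave 0.17 (0.806) and 0.48 (0.622), and its partner Upf2 gave -0.50 (0.445) and -0.20 (0.907). The nuclease gene Smg6 read 815, 511 and 843 in WT 25C against 687, 422 and 279 in S284Y 25C, a difference of -0.68 (0.345), and at 30C its difference was 0.01. The fit of the 10 other arrays called 1 of the 8 higher at 30C, where 9.15% of all probe sets passed.

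Cytoplasmic ribosomal protein genes, 37 of which were measured and 9 of which enclose snoRNAs, were looked at as the products that share ribosome assembly with the snoRNAs. By limma 0 of 37 were called between genotypes, with a lowest adjusted p of 0.230 at 25C and 0.0967 at 30C, and 7 and 4 had an unadjusted p under 0.05, near the shares of 13.9% and 11% over all probe sets. At 25C 34 of 37 differences were above 0 and the median was 0.38, and at 30C 30 of 37 were above 0 with a median of 0.13. The medians over all probe sets were 0.00 and 0.03. Once arrays 2 and 3 of S284Y 25C were left out the median at 25C was -0.01, so its size rests on them. The count of 34 is given only with these arrays. In the same setting 3 of 37 were called higher and 1 lower at 30C, a share near the 9.15% of all probe sets.

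The neighbours of Uhg1 on its chromosome arm were given by order in the RefSeq table, 5 measured genes on each side. Before Uhg1, from near to far, came rdgBbeta, swi2, HPS4, CG42562 and eIF3c. After it came CG6424, CG10934, Dlish, Snx16 and CG34195. By limma 0 of the 10 were called between genotypes at either temperature, with a lowest adjusted p of 0.0862 at 25C and 0.332 at 30C, and 2 and 1 had an unadjusted p under 0.05. Their differences lay between -1.32 and 0.67 at 25C and between -0.65 and 0.45 at 30C, all well short of the -5.78 and -5.07 of Uhg1. The median of the 10 was -0.54 at 25C and -0.13 at 30C. Over the other 10 arrays the median at 25C was -0.23.

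The gene nearest before Uhg1, rdgBbeta, which encodes a phosphatidylinositol transfer protein, read 357.4, 402.7 and 382.6 in WT 25C and 303.0, 450.8 and 123.5 in S284Y 25C. At 30C it read 359.6, 303.6 and 342.9 in WT and 292.6, 399.0 and 408.3 in S284Y. The genotypes overlapped at both temperatures, with differences of -0.53 ± 0.397 (SE) and 0.11 ± 0.397. CG6424, the nearest after Uhg1, read 1000, 1018 and 1018 in WT 25C and 906.8, 1216 and 146.0 in S284Y 25C. Its difference of -0.85 at 25C came with 1 low array, array 3, and was -0.16 without arrays 2 and 3. At 30C the difference was 0.15.

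Of the 10 neighbours, eIF3c alone had all WT arrays above all S284Y arrays, against 1.59% of all probe sets. The gene encodes a subunit of translation initiation factor 3. It read 3029, 3271 and 2911 in WT 25C, 2892, 3082 and 3330 in WT 30C, 2000, 1829 and 984.1 in S284Y 25C and 2298, 1634 and 2207 in S284Y 30C. The difference was -0.99 ± 0.240 (SE) at 25C (limma adjusted p 0.0862) and -0.61 at 30C (0.332). It passed at 25C without S284Y 25C array 1 (0.0179) or array 3 (0.0352). At 30C it passed in the fit of the 6 arrays at 30C (0.0280), without S284Y 25C array 3 (0.0182) and without arrays 2 and 3 (0.0124). Without arrays 2 and 3 the difference at 25C was -0.61 (0.182). HPS4, whose protein acts in the biogenesis of lysosome-related organelles, gave the lowest value of the 10 at 25C, -1.32 ± 0.405 (SE), which did not pass (0.190), and -0.57 at 30C. At 25C it was -1.66 and passed without S284Y 25C array 1 (0.0349), and was -0.64 without arrays 2 and 3 (0.541).

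**Figure D4:**
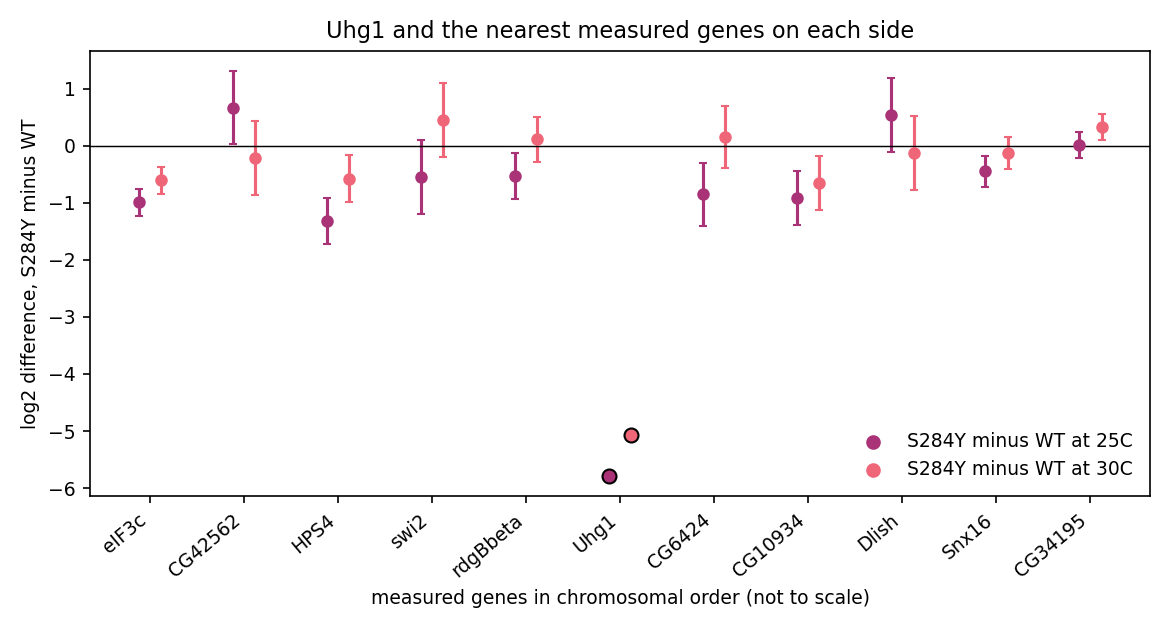
Log2 difference, S284Y minus WT, at 25C and at 30C for Uhg1 (outlined) and the 5 nearest measured genes on each side, placed in chromosomal order and not to scale, with bars of 1 SE of the fit for the neighbours. The neighbours lie between -1.32 and 0.67, while Uhg1 lies at -5.78 and -5.07.

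Genes whose signal followed that of Uhg1 over the 12 arrays were found by Pearson correlation on the log2 scale among 8493 probe sets with 1 gene name that were not dim in every group. The correlation was above 0.95 for 7 probe sets and below -0.95 for 7. Since the 12 Uhg1 values form 2 clusters, a high correlation means chiefly that a gene separates the genotypes, and no p is given. For the 10 genes named below, the correlation within the 6 WT arrays ranged from -0.53 to 0.87 and within the 6 S284Y arrays from -0.83 to 0.59.

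The highest correlation was that of Mur2B, a mucin-related gene, at 0.98. It read 1470 to 2339 with a median of 1732 on the WT arrays and 31.7 to 202.5 with a median of 71.3 on the S284Y arrays. Mur2B thus also went from bright to dim, with log2 differences of -4.59 at 25C and -4.13 at 30C.

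CG5399, CG31705, stil and CG1468 followed, with correlations of 0.97, 0.97, 0.97 and 0.96. The gene stil acts in the female germ line. It read 2673 to 4649 with a median of 3851 in WT and 500.4 to 939.4 with a median of 829.4 in S284Y. CG5399 read 5274 to 6349 in WT and 1151 to 2373 in S284Y, CG31705 read 2895 to 3803 and 1047 to 1473, and CG1468 read 1425 to 1892 and 428.1 to 754.0. None of these 4 came near the floor in the mutant.

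At the other end, CG11899 had the lowest correlation, -0.98. It read 1458 to 1690 with a median of 1603 in WT and 3540 to 6216 with a median of 4816 in S284Y. GstE1, a glutathione S-transferase gene, gave -0.96 and Naa80, the gene of the enzyme that acetylates the amino terminus of actin, gave -0.96. The lysozyme genes LysC and LysD gave -0.96 and -0.95. LysC read 751.7 to 2458 in WT and 28423 to 93677 in S284Y. The probe sets of LysC and LysD are both of a type that shares sequence within the lysozyme family, so they may not be separate readings. For all 10 genes the correlation had the same sign with 1 or 64 added in place of 16 and without S284Y 25C arrays 2 and 3.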

How the data were processed

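The authors deposited intensity values on a linear scale, 1 signal for each probe set of each 1-colour array. Their image analysis and scaling steps are not given in the sources used here. The 2% trimmed mean of an array was 1000.12 to 1000.18, so the table had already been scaled and was not normalized again. Of 14010 probe sets, 44 controls were left out and 13966 tested. A table of GEO's platform annotation gave 12443 of them 1 gene symbol, 327 more than 1 symbol and 1196 no symbol, and 12394 with 1 symbol were brought to current names through Entrez numbers in a RefSeq gene table. Coordinates and sequences are not reported here, and detection calls were not used.

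Signals were transformed as log2(signal + 16) and fitted with limma 3.58.1 in R 4.3.3 as 4 group means over the 12 arrays, with moderated variances that follow the mean level (prior degrees of freedom 4.83), with Benjamini-Hochberg adjustment over all tested probe sets and a threshold of 0.05. The fit was tested on simulated data with a capped spread, changes only in brighter probe sets and no arrays that stand apart. That test does not bear on signals near the floor or on such arrays. Tables were made in Python 3.11.15 with pandas 2.3.3. Percentiles are positions among the 13966 tested probe sets. Errors of signals are SD over 3 arrays and those of differences are SE of the fit. The number of arrays limits the precision.

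The brightest probe set stands for a gene with several. Genes named are Uhg1, other Uhg genes, U2af50 and U2af38, the nearest 5 measured genes on each side, the 5 highest and 5 lowest correlations with Uhg1 among probe sets whose highest group mean reached the 40th percentile of log2 values (8.30), and up to 4 members of each list called between genotypes. Others were named after their values were seen. Uhg1 and the lists were chosen with earlier results of these data known. The enclosing genes were meant to be on the strand of the snoRNA, but strand was not in the table used. Alternatives were other offsets, quantile normalization, median centring, fits of 6 arrays, leaving arrays out, WT 30C array 1 placed in WT 25C, the replicate number as a block, no trend and a filter on dim probe sets.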

Additional observations from a re-analysis of the deposited data

How the results depend on the processing

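The genotype difference of Uhg1 kept its direction in all 21 alternatives at each temperature. Its size moved with the number added before the logarithm, to -6.53 at 25C and -5.60 at 30C with 1 and to -4.63 and -4.15 with 64, because the S284Y signals are near that number. Leaving out single arrays gave -5.99 to -5.66 at 25C and -5.32 to -4.77 at 30C. Its temperature differences and interaction were called in no alternative: WT -0.34 to -0.21, S284Y 0.20 to 0.75, interaction 0.47 to 1.01. With the dimmest 40% left out Uhg1 has no value, since its mean log2 is under 8.30.

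The counts over all probe sets moved more, and the cause was not tested. At 25C, 110 were called between genotypes, 17 in the fit of 6 arrays and 48 to 885 without single arrays. At 30C, 213 were called, 1106 in the fit of 6 arrays, 1278 without S284Y 25C arrays 2 and 3, 106 with WT 30C array 1 moved to WT 25C and 82 to 821 without single arrays. Between temperatures in WT, 13 were called, 178 in the fit of 6, 200 without arrays 2 and 3, 0 with array 1 moved, 8 without trend, 7 with the dimmest 40% left out and 1 to 99 without single arrays. In S284Y, 559 were called, 0 in the fit of 6, 183 without arrays 2 and 3, 222 with array 1 moved, 128 without trend and 17 to 2398 without single arrays. For the interaction 0 were called, and 0 to 84 without single arrays.

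Deviations from group means of samples with the same replicate number correlated between -0.131 and 0.0620. No pairing by number was seen in these values, which cannot exclude that such samples were handled together. With the replicate block, 78 probe sets were called at 25C, 151 at 30C, 1 between temperatures in WT, 164 in S284Y and 0 for the interaction, and the differences of Uhg1 were the same with an SE of 0.363.

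Uhg1 has 1 probe set, so no second probe set bears on its values, and 3 arrays a group limit all comparisons. The S284Y signals are at the floor and give no level.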
